A study of Mus musculus with 6 samples.

Results

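Eph receptors and their ephrin ligands form a contact-dependent signalling system, and 10 of its genes were followed here: the receptor genes Ephb1, Ephb2, Ephb3, Ephb4, Epha4 and Epha5 and the ligand genes Efnb1, Efnb2, Efnb3 and Efna5. They were chosen by name from the 32564 genes measured, and Ephb2 and Efnb2 are on the list as reported targets of the microRNA miR-204. All 10 passed the filter on low counts, as did 15012 genes in all. The cells were taken as quiescent neural stem cells, the mostly non-dividing stem cells beside the lateral ventricles of the adult brain, and were sorted by flow cytometry from the subependymal zone. Their transcripts were measured by RNA sequencing, and the ventricles had been injected 3 days earlier.

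The antagomir group (3 libraries) had received an oligonucleotide that binds and blocks miR-204, and the vehicle group (3 libraries) had received artificial cerebrospinal fluid. Mice of both groups were 3 months old, of the strain labelled C56BL/6J, and carried the gfap:GFP transgene, in which the Gfap promoter drives green fluorescent protein. That promoter is active in astrocytes as well as in neural stem cells. Libraries were placed in groups by their titles, and the treatment group label gives the same split, but the treatment protocol text names the antagomir for all 6 libraries, the vehicle ones included. Read by titles, the vehicle mice had no control oligonucleotide, so blocking of miR-204 and a general response to an oligonucleotide cannot be told apart. Whether a replicate is 1 animal or a pool is not stated, and the p-values therefore reflect the spread among these libraries, part of which may be technical. By its title the study asks how miR-204 released by the choroid plexus bears on the number of neural stem cells.

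As background, an Eph receptor is a tyrosine kinase that is switched on by an ephrin on the surface of a touching cell, and the ephrin-bearing cell can also be signalled to in return. A-class ephrins are held to the membrane by a lipid anchor, and B-class ephrins cross it and carry a cytoplasmic tail. Receptors of each class mostly bind ligands of the same class, and EphA4 binds ephrin-Bs as well. In the subependymal zone EphB receptors and B-class ephrins are known for roles in keeping stem cells in place, in ependymal and astrocyte identity and in the migration of neuroblasts, the immature neurons that these stem cells give rise to.

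A microRNA pairs with target transcripts mainly through its seed, bases 2 to 8, and 3 mouse microRNAs of the reference, miR-204-5p among them, have this seed. They are shown because an antagomir result is usually read against seed matches, with the seed in capitals.
miR-204-5p: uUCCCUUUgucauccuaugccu
miR-211-5p: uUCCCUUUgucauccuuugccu
miR-7670-3p: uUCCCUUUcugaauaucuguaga
The mature miR-204-5p sequence lies on the plus strand of chromosome 19, 22750610 to 22750631 (RefSeq, GRCm38.p6). Its level, and that of the other microRNAs, was not analysed here.

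Seed matches of 3 kinds were searched in the sense strand of annotated 3′ UTRs: AAAGGGAA (8mer), AAAGGGA (7mer-m8) and AAGGGAA (7mer-A1, known as the weakest of the 3 kinds). Both shorter motifs lie within the 8mer, and each match was counted once, under its longest kind. The most abundant coding transcript of Ephb2, and likewise that of Efnb2, held only matches of the weakest kind, while Efnb3 and Efna5 held an 8mer. These matches are shown with 10 bases on either side, 5′ to 3′, with the matching bases in capitals (GENCODE M21, GRCm38).
Ephb2, first match, chr4:136655047-136655053, minus strand: ggattctcatAAGGGAAgtgacggttc
Ephb2, second match, chr4:136654893-136654899, minus strand: cattaacatgAAGGGAAgaggtgagcc
Efnb2, chr8:8620560-8620566, minus strand: tgcgcctcccAAGGGAActcgcacctt
Efnb3, chr11:69554149-69554156, minus strand: ttttattgtaAAAGGGAAatttgaacaa
Efna5, chr17:62606140-62606147, minus strand: tgggagggctAAAGGGAAatttggaata
Ephb4, chr5:137374395-137374401, plus strand: tgatgttgtaAAAGGGAcaggaggttg
The Ephb4 match is a 7mer-m8, and Efna5 held a further match of that kind at base 2299 of its 3′ UTR, counted from the first base after the stop codon.

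In Ephb2 the matches started at bases 269 and 423 of a 3′ UTR of 1714 bases, and they were present in each of the 3 Ephb2 coding transcripts with an annotated 3′ UTR. The Efnb2 match started at base 22 of 3154 bases, close to the stop codon, and the Efnb3 match ended 57 bases before the end of its 3′ UTR of 1768 bases. Ephb1, Epha4 and Epha5 held 7mer-A1 matches in their most abundant coding transcripts, and no match of these 3 kinds was in the window searched for Ephb3 or Efnb1. Longer Epha4 transcripts also held a 7mer-m8, and the longest Epha5 3′ UTR (4281 bases) also held an 8mer. In all, 3 of the 10 members had an 8mer or a 7mer-m8 in that transcript, against 13.6% of 14330 tested genes with an annotated 3′ UTR, and 8 of the 10 had a match of any kind, against 20.6%. The members' 3′ UTRs were longer, with a median of 1589 bases against 887 over all those genes. Among genes whose 3′ UTR length was within 20% of that of the named gene, 28.6% held a match of any kind for Ephb2, 45.3% for Efnb2, 8.51% held an 8mer for Efnb3 and 13.9% for Efna5. Over the 10 members the length-matched share for a match of any kind ran from 11.1% (Epha4) to 45.3% (Efnb2). Ephb2 and Efnb2 count among the 8 and were listed as reported targets. A match is a description of these letters and not evidence of binding.

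**Figure D1:**
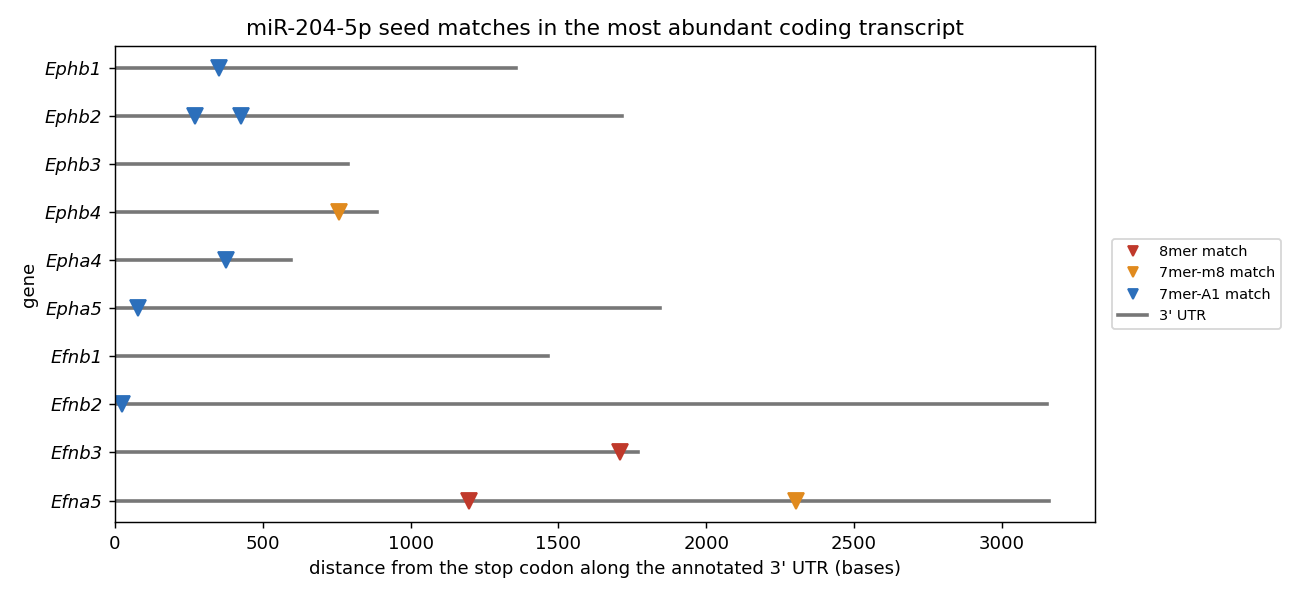
Annotated 3′ UTR of the most abundant coding transcript of each member (grey line, in bases from the stop codon) with the position of each miR-204-5p seed match (triangles, coloured by kind). Efnb3 and Efna5 carry the 8mer matches, Ephb2 and Efnb2 carry 7mer-A1 matches, in Efnb2 close to the stop codon, and Ephb3 and Efnb1 carry none of the 3 kinds.

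Levels are compared between genes in TPM, estimated counts per transcript length scaled to the same total in each library, as means ± SD over all n = 6 libraries. The ligand gene Efnb3 had the highest level of the 10 members, 178.9 ± 42.6 TPM, above 94.6% of all tested genes. Ephb1 followed with 44.6 ± 10.4 TPM, and its highest library (58.9 TPM) lay below the lowest Efnb3 library (111.8 TPM). Efnb3 made up 51.4 ± 9.86% of the members' summed TPM with the antagomir and 50.6 ± 10.99% with vehicle (SD, n = 3 each).

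Below Efnb3 the levels formed a slope of overlapping ranges. Ephb3 measured 33.04 ± 7.42 TPM, Efnb1 25.5 ± 7.10 TPM, Efnb2 22.7 ± 8.77 TPM, Epha4 19.7 ± 9.66 TPM and Epha5 13.5 ± 2.19 TPM. From Ephb1 down to Epha5 each neighbour's range over the 6 libraries overlapped the next, and Ephb1 was above Ephb3 in 5 of the 6. A second gap lay between Epha5, whose lowest library had 10.4 TPM, and Ephb4, whose highest had 10.3 TPM. Ephb4 measured 6.87 ± 2.37 TPM, Ephb2 3.01 ± 1.12 TPM and Efna5 1.83 ± 0.624 TPM, again with overlapping ranges. The reported target Ephb2 was thus a low-level transcript here, above 15.4% of tested genes, with 140 to 164 counts in the antagomir libraries and 72 to 136 in the vehicle libraries.

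The other 12 genes of the family were mostly lower. Efna2 with 19.7 ± 6.83 TPM and Efna1 with 18.3 ± 3.84 TPM, both lipid-anchored ligands, were at the level of Efnb2 and Epha4. Ephb6, a receptor without kinase activity, measured 7.09 ± 1.67 TPM, Efna4 5.13 ± 1.47 TPM and Epha3 4.76 ± 2.08 TPM. Efna3 (2.43 TPM), Epha1 (2.28 TPM), Epha7 (1.85 TPM), Epha8 (0.895 TPM), Epha6 (0.852 TPM), Epha2 (0.811 TPM) and Epha10 (0.452 TPM) were lower still. Of these, Epha2 and Epha6 each had 0 counts in 1 vehicle library, where the limit that a count of 0 allows, 3 counts, was 0.183 CPM for Epha2 and 0.152 CPM for Epha6.

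Each library held 14866453 to 19694409 estimated counts. Differences between groups are given in CPM, counts per 1000000 of the scaled library, and as log2 fold changes of antagomir over vehicle with standard errors from edgeR. At a Benjamini-Hochberg adjusted p of 0.05, edgeR called 0 of 15012 genes (0.0%), and 616 genes (4.1%) lay under an unadjusted p of 0.05. DESeq2 called 1 gene (0.00668%), which is not a member. Summed marker genes showed that cells other than stem cells and astrocytes contributed RNA. The 8 oligodendrocyte markers summed to 15205 to 21599 CPM with the antagomir and 9525 to 20035 CPM with vehicle, against 8843 to 12128 CPM and 11735 to 12801 CPM for the 10 quiescent stem cell and astrocyte markers. Microglia and macrophage markers (8 genes) summed to 1665 CPM in vehicle replicate 1, against 83.3 to 236 CPM in the antagomir libraries and 107 to 210 CPM in the other vehicle libraries. In these bulk samples fewer cells of a type and less RNA per cell cannot be told apart.

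Of the 10 members, edgeR called 0 at an adjusted p of 0.05 and 0 lay under an unadjusted p of 0.05, and DESeq2 likewise called 0. Ephb2, the receptor gene on the list as a reported miR-204 target, was the only member whose groups did not overlap, and it was higher with the antagomir. That is 1 of 10 members, where 5.07% of all tested genes were apart in that direction, 5.45% in the other and 10.5% in either. In TPM, too, Ephb2 was the only member whose groups did not overlap, where 7.05% of all tested genes were apart and higher with the antagomir. Positive fold changes were found for 8 members, against 49.1% of all tested genes, and the median log2 fold change was 0.27, against -0.0062 over all tested genes. This count was not tested, since members share libraries and are not independent. It includes Epha4 (0.00086) and Ephb3 (0.014), which were close to 0 and changed sign with upper-quartile scaling. Summed over the 10 members, the level was 387, 375 and 394 TPM in antagomir replicates 1, 2 and 3, against 295, 361 and 287 TPM in vehicle replicates 1, 2 and 3, and the sums did not overlap. In CPM the sums were barely apart, at 826, 762 and 815 against 671, 759 and 617 CPM. In TPM the sums of the other 12 family genes did not overlap either, at 73.6, 66.7 and 75.2 TPM against 62.1, 58.3 and 51.4 TPM. In CPM the sums of these 12 genes overlapped, and Efna2 was the only one of them whose own groups were apart. Over all tested genes the median log2 ratio of mean TPM, antagomir over vehicle, was 0.049. The 3 ephrin-B genes made up most of the members' TPM sum, with 228, 273 and 261 TPM in the antagomir libraries against 171, 239 and 191 TPM in the vehicle libraries.

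**Figure D2:**
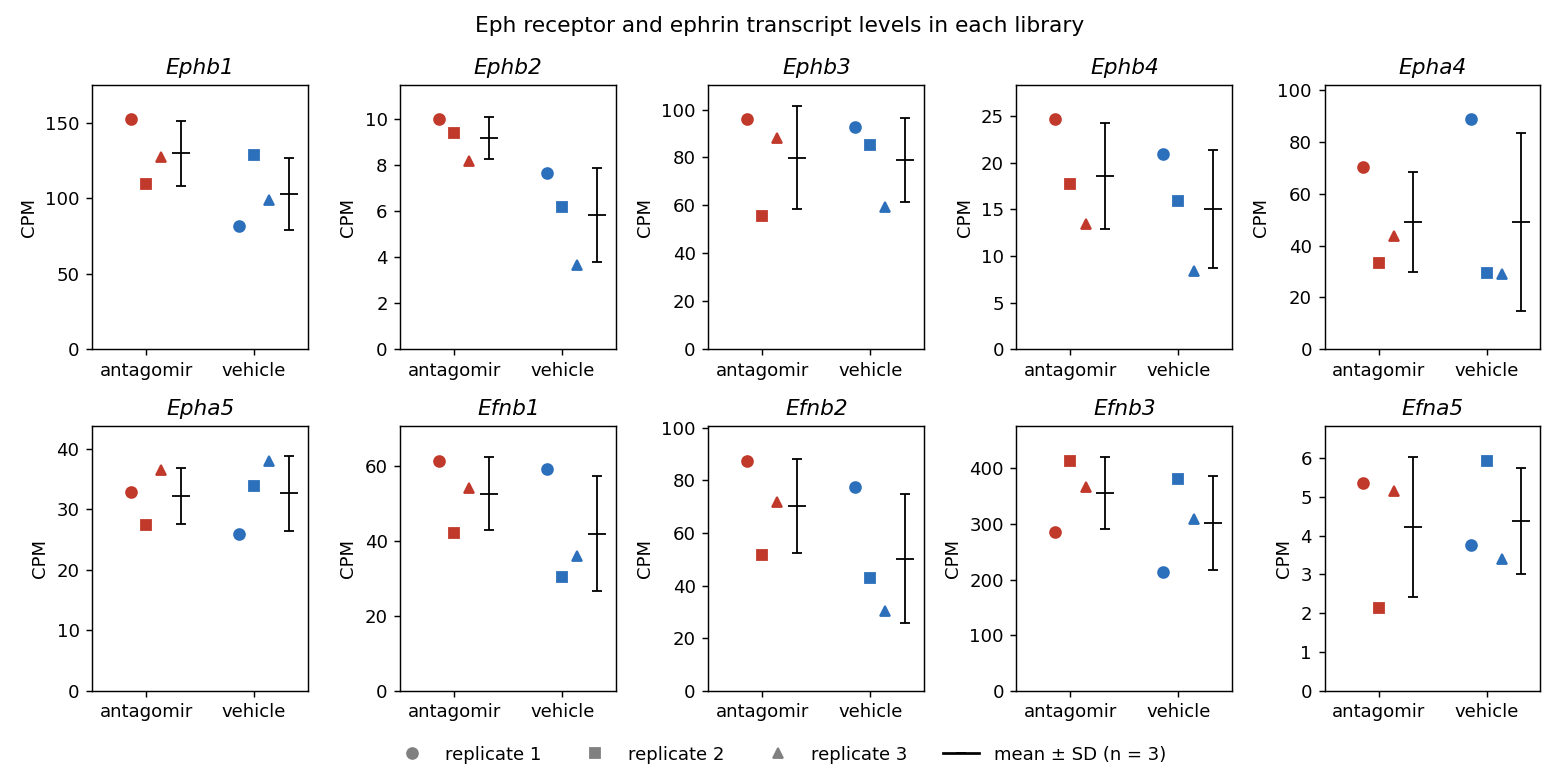
CPM of each member in each library (points, shaped by replicate number) with the group mean and SD beside them (n = 3 per group), antagomir left and vehicle right, each axis starting at 0. Only the Ephb2 groups do not overlap, and Epha4 and Efnb2 are highest in replicate 1 of both groups.

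Among the receptors, Ephb2 (ENSMUSG00000028664.14, chromosome 4, 136647539 to 136835988, minus strand, GRCm38) encodes an ephrin-B receptor known for cell sorting and axon guidance. It measured 9.98, 9.37 and 8.17 CPM in antagomir replicates 1, 2 and 3, against 7.65, 6.18 and 3.66 CPM in vehicle replicates 1, 2 and 3. The lowest antagomir library was above the highest vehicle library by less than 1 CPM, and vehicle replicate 3 was the lowest of the 6. The log2 fold change was 0.65 ± 0.39 (95% interval -0.23 to 1.54, edgeR adjusted p = 0.949). The interval ran from below no difference up to a 2.91-fold higher level, so neither was excluded. Without vehicle replicate 3 the fold change was 0.42, and without vehicle replicate 1 it was 0.91 (edgeR adjusted p = 1.000 and 0.687).

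Ephb1 (chromosome 9, 101922128 to 102354693, minus strand), an ephrin-B receptor gene and the most abundant receptor of the 10 members, measured 152, 109 and 127 CPM in antagomir replicates 1 to 3 and 81.5, 129 and 99.1 CPM in vehicle replicates 1 to 3. The groups overlapped, with vehicle replicate 2 above antagomir replicates 2 and 3. Its log2 fold change was 0.33 ± 0.21 (95% interval -0.14 to 0.81, edgeR adjusted p = 0.949), and it was 0.20 without vehicle replicate 1 or without antagomir replicate 1 and 0.52 without vehicle replicate 2. Ephb3 (chromosome 16, 21204755 to 21223305, plus strand), whose protein shares ligands with EphB2, measured 95.9, 55.4 and 88.3 CPM with the antagomir and 92.7, 85.2 and 59.4 CPM with vehicle. One library of each group stood low, antagomir replicate 2 and vehicle replicate 3. The group means of Ephb3, 79.9 ± 21.5 and 79.1 ± 17.5 CPM (SD, n = 3 each), differed by less than the spread between replicates (log2 fold change 0.014 ± 0.25, 95% interval -0.56 to 0.59).

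Ephb4 (chromosome 5, 137350109 to 137378669, plus strand) encodes the EphB receptor best known from veins, where its partner ephrin-B2 marks arteries. It measured 24.6, 17.7 and 13.4 CPM with the antagomir and 20.9, 15.9 and 8.38 CPM with vehicle, and the groups overlapped. Its log2 fold change was 0.30 ± 0.38 (edgeR adjusted p = 0.953), and 0.025 without vehicle replicate 3, the lowest library, 0.041 without antagomir replicate 1, the highest, 0.51 without antagomir replicate 3 and 0.63 without vehicle replicate 1. The 8 endothelial markers together summed to 5.60 to 12.9 CPM in the antagomir libraries and 8.12 to 24.7 CPM in the vehicle libraries. In antagomir replicate 1, where Ephb4 was highest, that endothelial sum was lowest, 5.60 CPM. Of the 8 endothelial markers, 5 had 0 counts in at least 1 library (Cdh5, the cadherin gene of endothelial junctions, in 5 of the 6), while Pecam1, Kdr and Flt1 were above 0 in all 6, Pecam1 with 77 to 150 counts in the antagomir libraries and 102 to 112 in the vehicle libraries. The 8 pericyte and fibroblast markers summed to 220 to 252.1 CPM with the antagomir and 252.2 to 262 CPM with vehicle, barely apart. Most of this sum came from Pdgfrb, Acta2 and Col1a2, each with overlapping groups, while Kcnj8, Vtn and Dcn had 0 counts in all 6 libraries. The part of vessel cells in the Ephb4 level was not tested.

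Epha4 (chromosome 1, 77367185 to 77515088, minus strand), the receptor gene whose protein binds both ephrin classes, measured 70.3, 33.1 and 43.7 CPM with the antagomir and 88.5, 29.4 and 29.04 CPM with vehicle. Replicate 1 was highest in both groups, and the group means were 49.02 ± 19.1 and 49.0 ± 34.2 CPM (SD, n = 3 each). Its log2 fold change of 0.00086 ± 0.47 had a 95% interval of -1.08 to 1.09, and it was 0.76 without vehicle replicate 1, -0.35 without antagomir replicate 1, and -0.26 and -0.25 when vehicle replicate 2 or 3 was left out. The range over the 6 libraries, 1.60 on the log2 scale, was wider than that of 96.0% of the 1000 tested genes nearest to it in level. Epha5 (chromosome 5, 84054761 to 84417382, minus strand), a receptor for A-class ephrins, was the steadiest member, at 32.8, 27.4 and 36.5 CPM with the antagomir and 26.0, 33.9 and 38.1 CPM with vehicle. Its groups overlapped, with a log2 fold change of -0.019 ± 0.22 (95% interval -0.51 to 0.48), and the sign turned in 3 of the 6 fits that left out a library.

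Among the ligands, Efnb2 (ENSMUSG00000001300.16, chromosome 8, 8617434 to 8661242, minus strand) encodes ephrin-B2, the other reported miR-204 target. It measured 87.5, 51.8 and 71.97 CPM in antagomir replicates 1, 2 and 3 and 77.5, 42.8 and 30.4 CPM in vehicle replicates 1, 2 and 3. The groups overlapped through vehicle replicate 1, which lay above 2 of the 3 antagomir libraries. The log2 fold change was 0.49 ± 0.35 (95% interval -0.31 to 1.29, edgeR adjusted p = 0.949). It depended on the vehicle libraries, at 0.96 without vehicle replicate 1 (edgeR adjusted p = 0.550), 0.24 without vehicle replicate 3 and 0.30 without antagomir replicate 1. Like Epha4, Efnb2 ranged widely, by 1.52 on the log2 scale, more than 97.0% of the 1000 genes nearest in level.

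Efnb1 (chromosome X, 99136130 to 99148991, plus strand), the ephrin-B1 gene, measured 61.4, 42.1 and 54.05 CPM with the antagomir and 59.2, 30.3 and 36.1 CPM with vehicle. Here too vehicle replicate 1 lay within the antagomir range and the other vehicle libraries below it. The log2 fold change was 0.33 ± 0.28 (95% interval -0.31 to 0.97, edgeR adjusted p = 0.949), 0.67 without vehicle replicate 1 and 0.14 without vehicle replicate 2. Without antagomir replicate 1 it was 0.20.

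Efnb3 (ENSMUSG00000003934.5, chromosome 11, 69554092 to 69560205, minus strand), the ephrin-B3 gene, measured 286, 414 and 367 CPM with the antagomir and 213, 381 and 310 CPM with vehicle. In contrast to Efnb2, its replicate 1 was the lowest of each group, and the groups overlapped. The log2 fold change was 0.24 ± 0.23 (95% interval -0.30 to 0.78, edgeR adjusted p = 0.950), 0.047 without vehicle replicate 1, 0.12 without antagomir replicate 2, and 0.37 and 0.45 without antagomir replicate 1 and vehicle replicate 2. Efna5 (chromosome 17, 62604184 to 62881317, minus strand), a lipid-anchored ligand gene and the other member with an 8mer, measured 5.35, 2.14 and 5.16 CPM with the antagomir and 3.77, 5.93 and 3.40 CPM with vehicle. Its groups overlapped almost wholly (log2 fold change -0.048 ± 0.53, 95% interval -1.26 to 1.17), and its sign turned without antagomir replicate 2 (0.28) or vehicle replicate 2 (0.24).

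**Figure D3:**
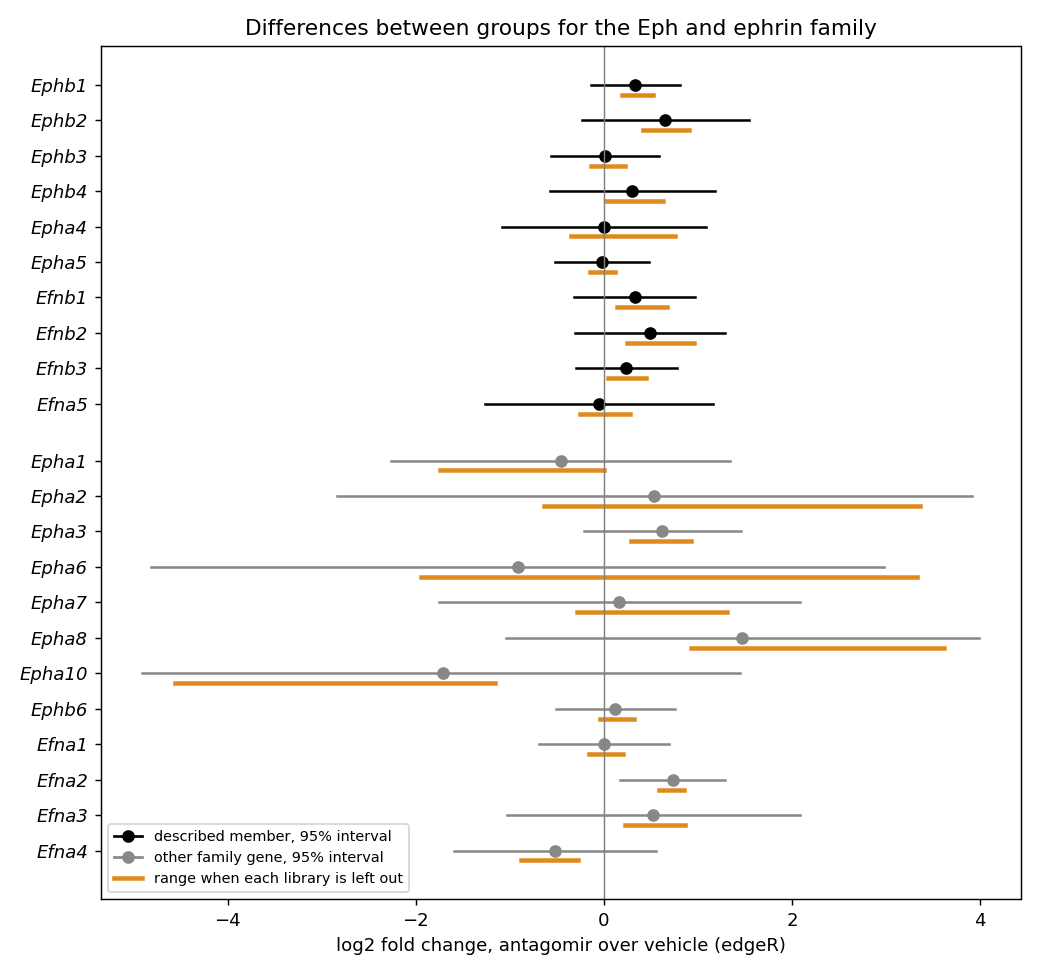
log2 fold change of antagomir over vehicle for the 10 members (black) and the other 12 family genes (grey), with 95% intervals from edgeR and the range of fits that each left out 1 library (orange). All 10 members' intervals include 0, and of the 22 genes only the interval of Efna2 lies above 0 (0.18 to 1.29).

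Several members were high in the same libraries of both groups. Antagomir replicate 1 held the highest level of 6 of the 10 members and the lowest of 0, while 23.5% of all tested genes were highest there. Vehicle replicate 3 held the lowest level of 4 members, against 20.8% of all tested genes. Relative to the mean of the 6 libraries on the log2 scale, Epha4 stood at 0.66 in antagomir replicate 1 and 0.99 in vehicle replicate 1. Efnb2 stood at 0.63 and 0.45, Efnb1 at 0.43 and 0.38 and Ephb4 at 0.63 and 0.39. Ephb3 (0.30 and 0.25) and Ephb2 (0.48 and 0.098) were also above their means in both. Ephb1 (0.42 and -0.49), Efna5 (0.39 and -0.11) and Epha5 (0.032 and -0.30) were above in antagomir replicate 1 and below in vehicle replicate 1. The same libraries had the highest sums of the 8 neuroblast markers, 2804 CPM in antagomir replicate 1 and 1534 CPM in vehicle replicate 1, against 950 and 973 CPM in the other antagomir libraries and 529 and 477 CPM in the other vehicle libraries. Mature neuron markers likewise had a sum that was highest in replicate 1 of each group, at 1128 CPM with the antagomir and 815 CPM with vehicle. The activated stem cell and dividing cell sum was 422, 346 and 425 CPM in antagomir replicates 1, 2 and 3 and 454, 177 and 208 CPM in vehicle replicates 1, 2 and 3. Positive fold changes were found for 8 of 8 neuroblast, 8 of 8 oligodendrocyte, 1 of 10 quiescent stem cell and astrocyte, 0 of 8 ependymal and 0 of 8 microglia and macrophage markers. For oligodendrocyte precursor markers they were 7 of 8, and 6 of 8 each for mature neuron and for activated stem cell and dividing cell markers. Of tested markers, 4 of 6 choroid plexus, 1 of 4 endothelial and 0 of 4 pericyte and fibroblast genes were positive. Over all tested genes the share was 49.1%. Markers of a list share libraries and are not independent, and edgeR called 0 genes of these lists.

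Efnb3 was the only member below its mean in replicate 1 of both groups, at -0.17 with the antagomir and -0.59 with vehicle. It was highest in antagomir replicate 2 (0.37) and vehicle replicate 2 (0.25). Oligodendrocyte markers stood at -0.10, 0.41 and 0.32 in antagomir replicates 1, 2 and 3 and at -0.78, 0.30 and -0.15 in vehicle replicates 1, 2 and 3. Choroid plexus markers stood at -0.22, 0.40 and 0.27 in antagomir replicates 1, 2 and 3 and at -0.67, 0.31 and -0.09 in vehicle replicates 1, 2 and 3. Oligodendrocyte precursor, ependymal and endothelial markers were also below their means in replicate 1 of both groups. The choroid plexus sum ranked the 6 libraries in the same order as Efnb3. The oligodendrocyte sum shared the highest library of Efnb3, antagomir replicate 2, and its lowest, vehicle replicate 1. Most of the choroid plexus sum came from a single gene of that list, Enpp2. It measured 822, 1216 and 1113 CPM in antagomir replicates 1, 2 and 3 and 555, 1159 and 854 CPM in vehicle replicates 1, 2 and 3. Ttr, Kcne2, Kl and Aqp1 of the same list had at most 37 counts in any library, so the sum says little about choroid plexus cells. The part of neuroblasts, neurons, oligodendrocytes, choroid plexus or other cells in the members' levels was not tested.

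**Figure D4:**
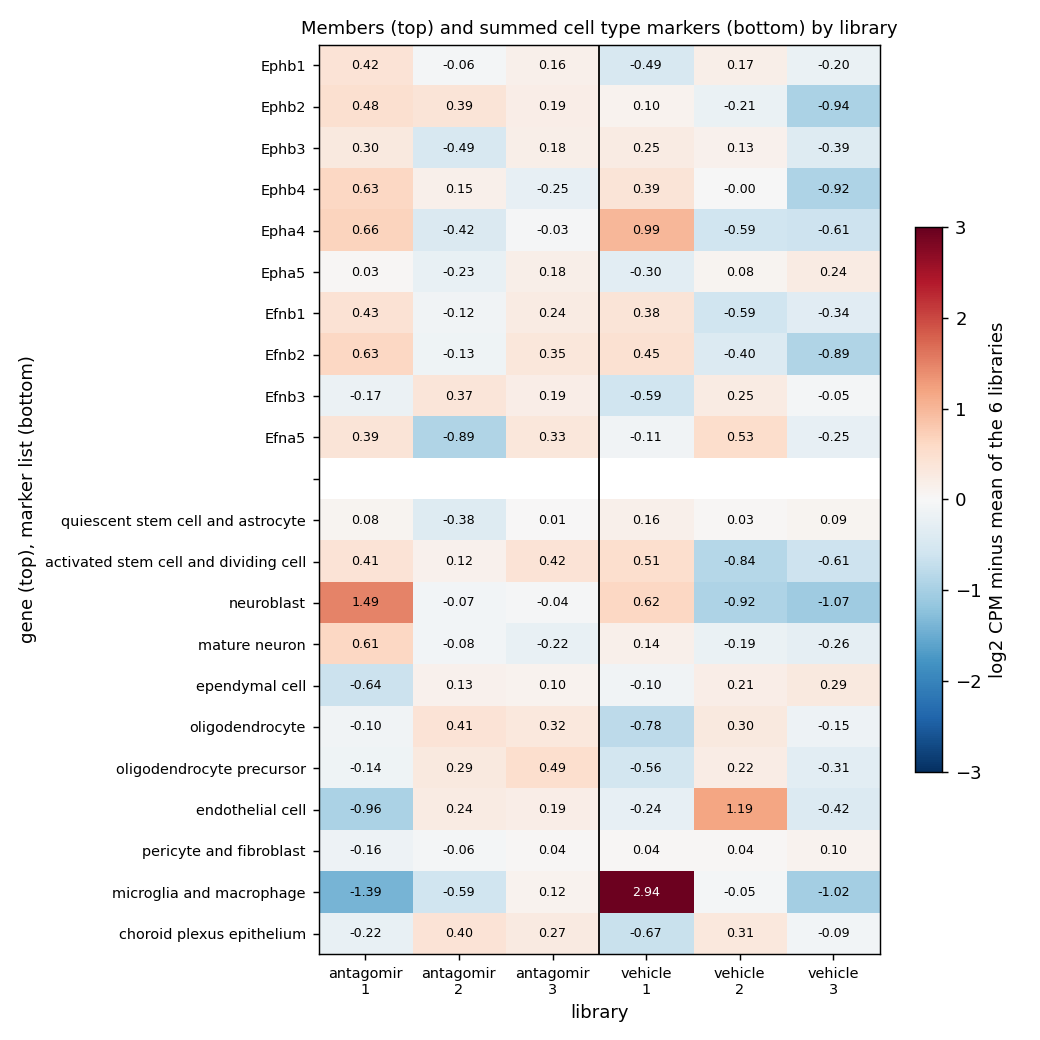
log2 CPM of each member (top) and log2 of the summed CPM of each cell type marker list (bottom) in each library, relative to the mean of the 6 libraries, with antagomir libraries left of the line. Epha4, Efnb2, Efnb1, Ephb4, Ephb3 and Ephb2 are above their means in replicate 1 of both groups. So are the neuroblast, mature neuron, and activated stem cell and dividing cell markers. The quiescent stem cell and astrocyte markers are too, but they are below their mean only in antagomir replicate 2. Efnb3 and the oligodendrocyte, oligodendrocyte precursor, ependymal, endothelial and choroid plexus markers are below their means in replicate 1 of both groups.

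The genes most like Ephb2 over the 6 libraries, by the smallest root mean square difference of centred log2 CPM among 10897 genes with at least 10 CPM, were Trim36 (0.072), Bcor (0.105) and Wnt5a (0.114). The median gene differed from Ephb2 by 0.53. Since the genes were picked for this likeness, group differences close to that of Ephb2 follow from the choice. Trim36, a ubiquitin ligase gene, measured 65.5, 62.1 and 57.9 CPM with the antagomir and 48.5, 44.03 and 27.01 CPM with vehicle (log2 fold change 0.63, edgeR adjusted p = 0.949). Bcor, a transcriptional corepressor gene, averaged 23.6 ± 3.51 and 15.01 ± 4.98 CPM with antagomir and vehicle, and Wnt5a, a secreted signalling ligand gene, 16.3 ± 3.12 and 10.3 ± 3.56 CPM (SD, n = 3 each). For Efnb2 the nearest of 10896 genes were Grpel2 (0.071), a mitochondrial import gene, Ppp2r1b (0.13), a phosphatase subunit gene, and Pdlim7 (0.13), an actin-associated scaffold gene.

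Of the other 12 family genes, edgeR called 0, and 1 (Efna2) lay under an unadjusted p of 0.05, where 2.18% of all tested genes did so on the higher side. Efna2, the ephrin-A2 gene, measured 35.04, 24.5 and 28.4 CPM with the antagomir and 19.2, 20.1 and 13.6 CPM with vehicle, and its groups did not overlap. Its log2 fold change was 0.73 ± 0.24 (95% interval 0.18 to 1.29, edgeR adjusted p = 0.949), and it stayed between 0.58 and 0.86 when each library was left out. Its most abundant coding transcript held a 7mer-A1 match, and those of Ephb6 and Epha7 held an 8mer. Epha3, a receptor for A-class ephrins, measured 27.1, 10.3 and 20.2 CPM with the antagomir and 14.4, 11.3 and 11.8 CPM with vehicle (log2 fold change 0.62 ± 0.36). Its groups overlapped through antagomir replicate 2. The lowest genes scattered most, as with Epha8 at 3.65, 5.29 and 1.93 CPM with the antagomir and 3.32, 0.489 and 0.102 CPM with vehicle. Epha10 had 22, 1 and 1 counts with the antagomir and 37, 43 and 3 with vehicle.

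Genes that act with the receptors and ligands were read from a list of cytoplasmic partners and a list of the proteases that cut ephrins and Eph proteins. edgeR called 0 of the 25 tested partners and 0 of the 6 tested proteases, and 1 partner and 0 proteases lay under an unadjusted p of 0.05, where 4.1% of all tested genes did. The groups did not overlap, higher with the antagomir, for 4 of the 25 partners (Anks1b, Grb2, Grb10 and Abl2) and 1 of the 6 proteases (Psen2), against 5.07% of all tested genes. DESeq2 called none of the genes named from them. The median log2 fold change was 0.11 for the partners and 0.062 for the proteases. Among the partners Anks1b, a scaffold gene of the family whose members bind Eph receptors, measured 191, 155 and 160 CPM with the antagomir and 139, 115 and 86.3 CPM with vehicle, with no overlap (log2 fold change 0.57 ± 0.20, edgeR adjusted p = 0.949). Grip2, a PDZ scaffold gene related to the ephrin-B partner Grip1, averaged 51.97 ± 11.6 CPM with the antagomir and 71.5 ± 10.8 CPM with vehicle. Inppl1, a lipid phosphatase gene, averaged 80.2 ± 4.62 and 101.6 ± 19.98 CPM, and the kinase gene Abl1 99.9 ± 10.2 and 76.5 ± 17.5 CPM (antagomir and vehicle, SD, n = 3 each). None of these 4 passed edgeR's test (adjusted p = 0.949 for each).

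Of the proteases, Psen2, a catalytic subunit gene of gamma-secretase, measured 15.02, 13.4 and 15.4 CPM with the antagomir and 7.76, 11.3 and 10.3 CPM with vehicle, with no overlap (log2 fold change 0.58 ± 0.27, edgeR adjusted p = 0.949). Adam10, the main ephrin sheddase gene, averaged 98.97 ± 4.12 and 89.8 ± 14.6 CPM, Adam17 55.95 ± 7.34 and 66.5 ± 6.48 CPM, and Mmp2 5.83 ± 1.12 and 8.38 ± 2.99 CPM (antagomir and vehicle, SD, n = 3 each).

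Within a gene, the share of each annotated transcript was compared, since the totals above sum over transcripts. In 5 members (Ephb1, Ephb2, Ephb4, Epha4 and Epha5) a second transcript held at least 5% of the gene's TPM, and the share of the most abundant one was tested by an exact two-sided permutation test, which cannot give a p below 0.1 with 3 against 3 libraries. Only the Epha5 groups did not overlap. The most abundant Epha5 transcript (ENSMUST00000136775.1), annotated as a retained intron and so not coding for the receptor, held 20.1, 17.5 and 35.03% of Epha5 TPM in antagomir replicates 1, 2 and 3 and 50.97, 43.04 and 38.5% in vehicle replicates 1, 2 and 3. The mean difference was -19.97 percentage points (exact permutation p = 0.1, the smallest possible, adjusted p = 0.5 over the 5 genes). That direction was found in 4.12% of 9622 tested genes with a second transcript of that share. In TPM the transcript measured 2.52, 1.82 and 5.19 with the antagomir, against 6.25, 6.32 and 6.36 with vehicle.

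The share of protein-coding transcripts was looked at after these values were seen, and no test was run on it. For Epha5 it was 74.1, 70.1 and 59.6% in antagomir replicates 1, 2 and 3, against 41.7, 55.3 and 50.9% in vehicle replicates 1, 2 and 3, with no overlap. Most of the rest of Epha5 is the retained-intron transcript above, so this is not a separate result. Epha4 had a coding share of 50.8, 73.1 and 33.2% with the antagomir, against 27.4, 24.2 and 32.9% with vehicle, and the 2 groups were apart by less than 1 percentage point. Of 7053 tested genes with a mixed set of transcripts, 5.19% were apart in that direction and 3.08% in the other. In Epha4 the most abundant transcript overall was one annotated for nonsense-mediated decay, and the coding transcript with the longest 3′ UTR (ENSMUST00000027451.12, 3310 bases) measured 6.95, 5.13 and 0.361 TPM with the antagomir, against 1.21, 0.252 and 0.243 TPM with vehicle. That transcript is the coding Epha4 form that holds the 7mer-m8. Another form, annotated for nonsense-mediated decay (ENSMUST00000188952.6), has a 3′ UTR of 3306 bases and holds the same 7mer-m8. It measured 3.30, 0.358 and 5.63 TPM with the antagomir, against 11.8, 4.39 and 3.54 TPM with vehicle. How reads divide between these similar transcripts is a model estimate, and the Epha4 coding share depends on it.

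**Figure D5:**
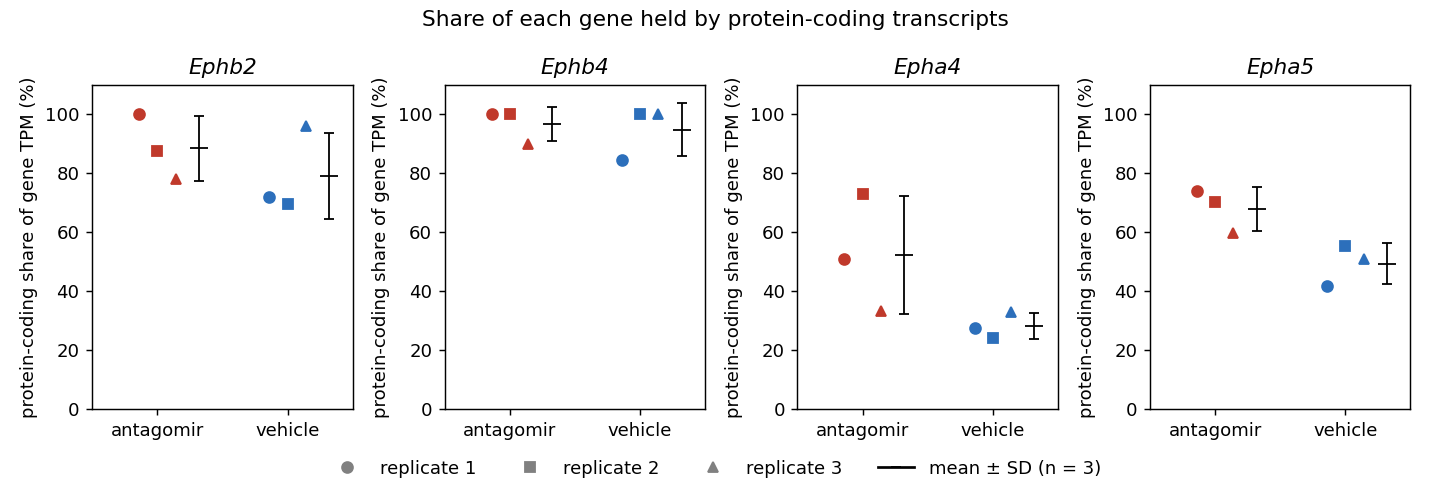
Share of each gene's TPM held by protein-coding transcripts in each library (points, shaped by replicate number), with the group mean and SD (n = 3 per group), for Ephb2, Ephb4, Epha4 and Epha5. The Epha5 groups are apart, the Epha4 groups are barely apart, and the Ephb2 and Ephb4 groups overlap.

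In Ephb2 the coding transcript with the shorter 3′ UTR of 676 bases (ENSMUST00000105846.8) measured 1.89, 1.81 and 1.38 TPM in the antagomir libraries, against 0.509 and 0.625 TPM in vehicle replicates 1 and 2, and it was listed at 0 in vehicle replicate 3. The transcript with the 3′ UTR of 1714 bases (ENSMUST00000059287.13) measured 1.99, 1.41 and 1.33 TPM with the antagomir and 1.64, 1.03 and 0.747 TPM with vehicle, and its groups overlapped. Both hold the same pair of 7mer-A1 matches. The share of the longer form was 41.3 ± 7.70% with the antagomir and 56.3 ± 17.7% with vehicle (SD, n = 3 each, exact permutation p = 0.2). Ephb1, with 3 coding transcripts, had a share of its main form of 68.5 ± 12.6% with the antagomir and 70.2 ± 3.15% with vehicle (exact permutation p = 0.9). The split between overlapping transcripts of a gene is a model estimate and rests, for Ephb2, on 72 to 164 counts in a library.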

How the data were processed

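RNA-seq libraries of sorted subependymal cells were compared, 3 after antagomir and 3 after vehicle, with groups and replicate numbers from the titles. Per the labels' protocols, cDNA was made with a SMART-Seq v4 kit, which does not mark strand. Tools named in the submitters' processing notes are kallisto and sleuth, and the build named there is mm10. Their versions are not stated. Each deposited file holds, per the file headers, estimated counts (expected counts) per transcript, which are not normalized. It also holds TPM, which the authors' tool scaled for transcript length and library total, per the file headers. kallisto divides reads between similar transcripts by a model.

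Transcripts were matched by identifier, without version, to GENCODE M21 (98294 of 99567, the other 1273 holding 0.524 to 0.586% of counts), summed per gene and rounded. The main test was that of edgeR 4.0.16 under R 4.3.3 (TMM, filterByExpr with a minimum count of 10, robust quasi-likelihood fit, group only) and Benjamini-Hochberg adjustment over 15012 genes, threshold 0.05. Standard errors are the coefficient over the root of the quasi-F statistic. The script was tested on simulated counts. Exons of 2 members overlap a gene on the other strand, Ephb1 (2.17% of its exon bases, Gm26846) and Ephb4 (0.711%, Zan), and such reads cannot be told apart. Libraries were checked for identity, with a chi-square per gene of 23.6 to 98.6, far above sampling noise.

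The members and lists were chosen with earlier results of these data known. Named were all 22 family genes, up to 4 genes of smallest p per pathway list and the 3 genes most like Ephb2 and Efnb2. One of the pathway lists is not reported here. Alternatives were RLE and upper-quartile scaling, other filters, DESeq2 1.42.0, length offsets, the replicate block, each library left out, and limma 3.58.1 on log2(TPM + 1). Counting floors cover counting error only.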

Additional observations from a re-analysis of the deposited data

How the results depend on the processing

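No member and no other named gene passed an adjusted p of 0.05 in any of the other settings or with any single library left out. The smallest unadjusted p over these fits (edgeR or DESeq2) was 0.0094 for Efnb2, 0.023 for Efnb1 and 0.038 for Ephb1. Every other member stayed above an unadjusted p of 0.05. DESeq2 called 1 gene of all tested, and every other setting called 0. Over 7 other settings, 3 of 70 member fold changes changed sign: Epha4 was -0.0048 with a mean count of at least 50 and -0.024 with upper-quartile scaling, and Ephb3 was -0.0081 with upper-quartile scaling. Efna1, at -0.00027, was 0.0032 with DESeq2, 0.0031 with RLE scaling, 0.0094 with length offsets, 0.00044 with a mean count of at least 50 and 0.0062 with no filter. With each library left out in turn, 11 of 60 member fold changes changed sign. The ranges were -0.35 to 0.76 for Epha4, -0.15 to 0.12 for Epha5, -0.14 to 0.23 for Ephb3 and -0.25 to 0.28 for Efna5. Among other family genes they were -0.16 to 0.20 for Efna1, -0.63 to 3.37 for Epha2, -1.94 to 3.33 for Epha6, -0.28 to 1.31 for Epha7 and -0.046 to 0.32 for Ephb6. Fold changes on log2(TPM + 1) and log2(TPM + 0.1) had the same sign for all 10 members. The cause of these turns was not tested.

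Deviations of same-numbered libraries correlated over genes at 0.19 for number 1, the highest of the 9 pairings, and at 0.075 and 0.028 for numbers 2 and 3. Since not every number exceeded 0.1, and antagomir replicates 2 and 3 each correlated more with another number, the numbers were not taken as pairs. With the replicate block 0 members and 0 genes were called, 1284 genes lay under an unadjusted p of 0.05 against 616 without it, Efnb2 had a log2 fold change of 0.56 (edgeR adjusted p = 0.575), and Epha6 turned to 0.52. Low counts limit Ephb2, Efna5 and most EphA genes outside the members.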
